A study of Mus musculus with 4 samples.

Results

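Replication-dependent histone genes were taken as every gene whose symbol in the deposited matrices starts with Hist1h, Hist2h, Hist3h or Hist4h. The rule found 67 genes of 32285, and it used no measured value. By name, 6 encode the linker histone H1, 18 encode H2A, 18 encode H2B, 12 encode H3 and 13 encode H4. Of the 67 genes, 3 had no UMI in any kept cell, 3 had between 1 and 9 UMIs, and 61 had 10 or more. A UMI is a tag that counts 1 captured RNA molecule. Levels are given as CPM, the UMIs of a gene per 1000000 UMIs summed over the cells of a group.

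RNA and a CD24 antibody were read in single cells of femur and tibia from 1 young (6 months) and 1 old (24 months) mouse by CITE-seq. Both mice carried the INK-ATTAC transgene, in which the p16 (Ink4a) promoter drives an inducible caspase, and both were untreated. Each age is thus 1 animal and 1 library, and age, animal and library cannot be told apart. Bone and marrow digests were pooled, red cells were lysed, blood cells were depleted on beads through markers that include CD45R (B220) of B cells and Ter-119 of red cells, and live CD45- cells were sorted, so cell numbers per group are those of a depleted sort.

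Kept cells numbered 10063 of 11371 barcodes in the young mouse and 5607 of 6729 in the old mouse, and 19 kept barcodes occurred in both libraries. Cells were placed in groups by the UMIs of marker genes that include no histone gene. The mesenchymal group held 8109 young and 4090 old cells, the erythroid group 301 and 326, the B-lineage group 364 and 51, and the progenitor group 155 and 64. A group name means only that the cells passed that marker list. The summed erythroid markers stood at 2315 (young) and 3269 (old) CPM in the erythroid group and at 5.51 and 8.34 in the mesenchymal group. In the progenitor group they stood at 378 and 409 CPM, against 1162 and 1182 for the progenitor markers, so that group was not free of erythroid RNA. The labels call all sorted cells mesenchymal, while these blood groups passed the lists of blood lineages.

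Core histones H2A, H2B, H3 and H4 form the protein spool around which DNA is wound, and H1 binds the DNA between spools. Most of this supply is made in S phase from clustered genes without introns, so that new DNA can be packed as it is copied. Their mRNAs usually end in a stem-loop bound by Slbp and carry no poly(A) tail, although some of the genes also give rise to polyadenylated RNA. The libraries were made from poly(A) RNA with a 3′ kit, so the values count only the histone RNA that such a kit captured, and levels do not rank total histone mRNA.

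In RefSeq (GRCm38.p6, the assembly that mm10 of the submitters' processing notes denotes), 66 of the 67 genes matched 1 entry. The Hist1 genes lie on chromosome 13, the Hist2 genes on chromosome 3, the Hist3 genes on chromosome 11 and the Hist4 gene on chromosome 6. Promoter windows of 300 bases, from 250 before to 50 after the gene start, were at hand for 60 of the genes. The letters CCAAT, searched on both strands, occurred in 51 of the 60 windows (85.0%), against 37.9% of all 27025 promoter windows. TATAAA occurred in 35 of 60 (58.3%), against 14.2% of all windows. The octamer ATTTGCAT occurred in 13 of 60 (21.7%), against 1.75% of all windows, and each of the 13 was an H2A or H2B gene. All 48 H1, H2A, H2B and H3 windows held CCAAT, while 3 of the 12 H4 windows did. A match describes letters and is not a bound site.

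Of these windows, 4 are shown because their genes span the range of levels described next: Hist1h1b and Hist1h2ae were the H1 and H2A genes highest in the erythroid, B-lineage and progenitor groups, Hist1h1c was the H1 gene highest in mesenchymal cells, and Hist1h2ac starts beside Hist1h2bc, the H2B gene highest in mesenchymal cells. Capitals mark the 3 motifs just named or their reverse complements, and each sequence reads 5′ to 3′ toward the gene. In GRCm38.p6 the windows lie at chr13:21780576-21780875 on the minus strand for Hist1h1b, chr13:23738557-23738856 on the plus strand for Hist1h1c, chr13:23571171-23571470 on the minus strand for Hist1h2ae and chr13:23683910-23684209 on the minus strand for Hist1h2ac.
Hist1h1b: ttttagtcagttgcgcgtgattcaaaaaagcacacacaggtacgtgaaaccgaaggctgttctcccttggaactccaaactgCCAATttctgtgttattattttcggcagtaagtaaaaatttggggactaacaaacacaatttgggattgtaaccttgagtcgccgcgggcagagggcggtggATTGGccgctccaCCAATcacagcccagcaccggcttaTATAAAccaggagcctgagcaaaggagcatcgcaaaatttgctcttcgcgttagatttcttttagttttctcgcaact
Hist1h1c: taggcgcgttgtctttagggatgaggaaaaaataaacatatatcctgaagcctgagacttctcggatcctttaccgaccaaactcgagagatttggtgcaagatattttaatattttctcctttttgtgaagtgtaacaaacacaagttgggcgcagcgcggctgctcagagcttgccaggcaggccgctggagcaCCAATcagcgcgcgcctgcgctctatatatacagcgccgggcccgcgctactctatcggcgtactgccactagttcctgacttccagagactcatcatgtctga
Hist1h2ae: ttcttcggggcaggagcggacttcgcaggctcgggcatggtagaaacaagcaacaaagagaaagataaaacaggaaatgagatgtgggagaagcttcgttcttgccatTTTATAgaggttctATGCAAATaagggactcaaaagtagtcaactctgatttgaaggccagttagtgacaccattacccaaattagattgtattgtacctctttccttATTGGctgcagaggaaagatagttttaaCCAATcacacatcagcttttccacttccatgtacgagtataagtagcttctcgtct
Hist1h2ac: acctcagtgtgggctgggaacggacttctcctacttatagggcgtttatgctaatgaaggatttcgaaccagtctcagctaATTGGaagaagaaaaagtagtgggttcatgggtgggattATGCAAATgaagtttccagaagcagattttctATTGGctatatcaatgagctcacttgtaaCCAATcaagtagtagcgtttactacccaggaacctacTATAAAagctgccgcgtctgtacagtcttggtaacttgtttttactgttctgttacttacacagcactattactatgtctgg

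The summed histone UMIs were highest in the B-lineage group and lowest in the mesenchymal group in both mice. In the B-lineage group they made up 13407 CPM (95% exact Poisson interval 13253 to 13563) in the young mouse and 10834 (10538 to 11137) in the old mouse. The erythroid group held 8254 (8173 to 8335) and 6852 (6787 to 6918) CPM. The progenitor group held 2019 (1973 to 2065) and 1852 (1794 to 1912) CPM. The mesenchymal group held 283 (279 to 288) and 305 (300 to 310) CPM. These intervals cover counting error only, and no interval of one group met that of another within a mouse. Granulocyte cells held 697 and 820 CPM and megakaryocyte cells 1141 and 1787 CPM in the young and the old mouse.

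**Figure D1:**
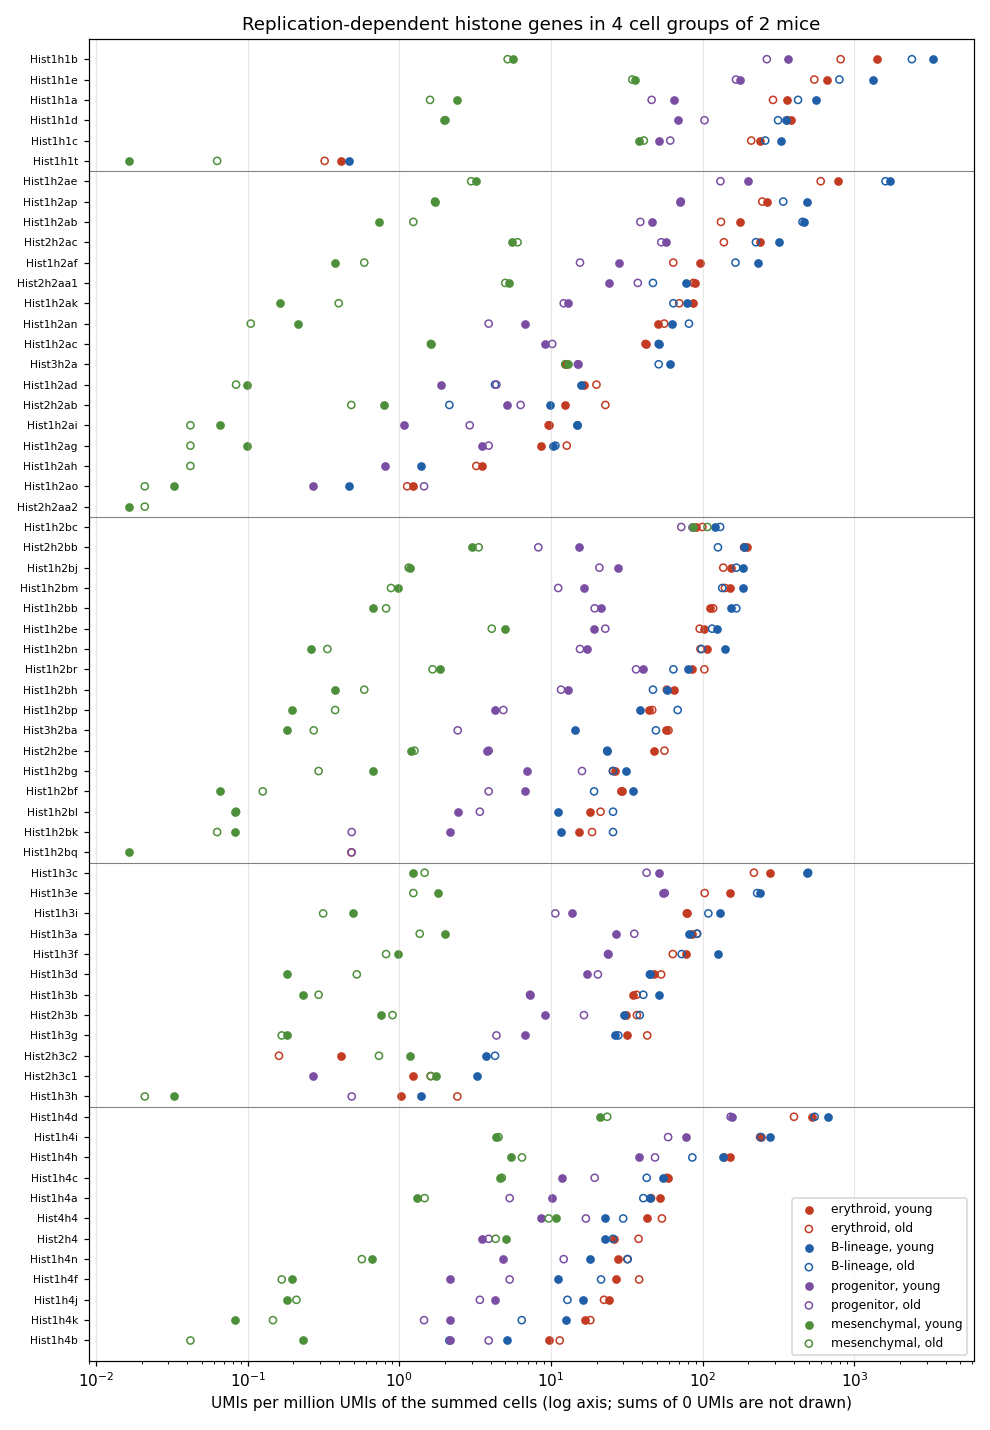
Level of each histone gene with at least 1 UMI (rows, ordered by type from H1 at the top to H4 at the bottom) in CPM on a log axis. Colours are the 4 cell groups, filled points the young mouse and open points the old mouse, and Hist1h1b in the B-lineage group lies furthest right at 3315 and 2396 CPM.

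Linker histone genes led the list. Hist1h1b stood at 3315 (young) and 2396 (old) CPM in B-lineage cells, at 1407 and 812 in erythroid cells, at 364 and 265 in progenitor cells and at 5.60 and 5.18 in mesenchymal cells. Both B-lineage values were above every erythroid value, and the mesenchymal values lay far under the rest. Hist1h1e, another linker histone, stood at 1325 and 797 in B-lineage cells, 663 and 545 in erythroid cells, 175 and 166 in progenitor cells, and 36.0 and 34.4 in mesenchymal cells. Hist1h1a and Hist1h1d stood at 558 and 425 and at 355 and 314 CPM in B-lineage cells, against 2.42 and 1.59 and 1.96 and 2.01 CPM in mesenchymal cells. Hist1h1d was the exception in order, since its erythroid values of 383 and 361 CPM were above its B-lineage values.

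Among the H2A genes, Hist1h2ae was the highest in the erythroid, B-lineage and progenitor groups of both mice, at 1725 and 1605 CPM in B-lineage cells, 774 and 600 in erythroid cells, 198 and 131 in progenitor cells. In mesenchymal cells Hist1h2ae stood at 3.20 and 2.98 CPM, under the H2A genes Hist3h2a at 12.9 and 12.4 and Hist2h2ac at 5.55 and 6.02. Hist1h2ap and Hist1h2ab stood at 487 and 340 and at 466 and 455 CPM in B-lineage cells. The H3 gene with most UMIs was Hist1h3c, at 485 and 496 CPM in B-lineage cells and 1.23 and 1.47 in mesenchymal cells. The H4 gene with most UMIs was Hist1h4d, at 670 and 547 in B-lineage cells, 522 and 400 in erythroid cells, 156 and 153 in progenitor cells and 21.0 and 23.5 in mesenchymal cells. Each of these genes apart from Hist3h2a kept the order of B-lineage, erythroid, progenitor and mesenchymal cells in both mice. Hist3h2a was higher in progenitor than in erythroid cells of both mice. Hist1h2aa, Hist1h2ba and Hist1h4m were at 0 UMIs in all kept cells, of which Hist1h2aa and Hist1h2ba encode testis histones. Near-identical copies (Hist2h2aa1 and Hist2h2aa2, Hist2h3c1 and Hist2h3c2, Hist1h2ao and Hist1h2ap, Hist1h2bq and Hist1h2br, and the H4 genes) can lose or share reads in counting, so their split is uncertain.

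Hist1h2bc, an H2B gene, departed from this pattern. It stood at 90.4 (young) and 99.5 (old) CPM in erythroid cells, 121 and 130 in B-lineage cells, 85.3 and 72.3 in progenitor cells and 86.0 and 107 in mesenchymal cells. Its highest levels were in megakaryocyte cells, at 320 and 434 CPM, and granulocyte cells held 166 and 137. The 8 values of the 4 main groups thus ran from 72.3 to 130 CPM. Hist1h2bc gave 30.4% and 35.2% of the histone UMIs of mesenchymal cells, against 0.901% and 1.20% in B-lineage cells. Hist1h1c, a linker histone, was also spread over the groups, at 327 and 259 CPM in B-lineage cells, 237 and 209 in erythroid cells, 51.9 and 61.1 in progenitor cells, 38.0 and 40.9 in mesenchymal cells and 199 and 246 in megakaryocyte cells.

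**Figure D2:**
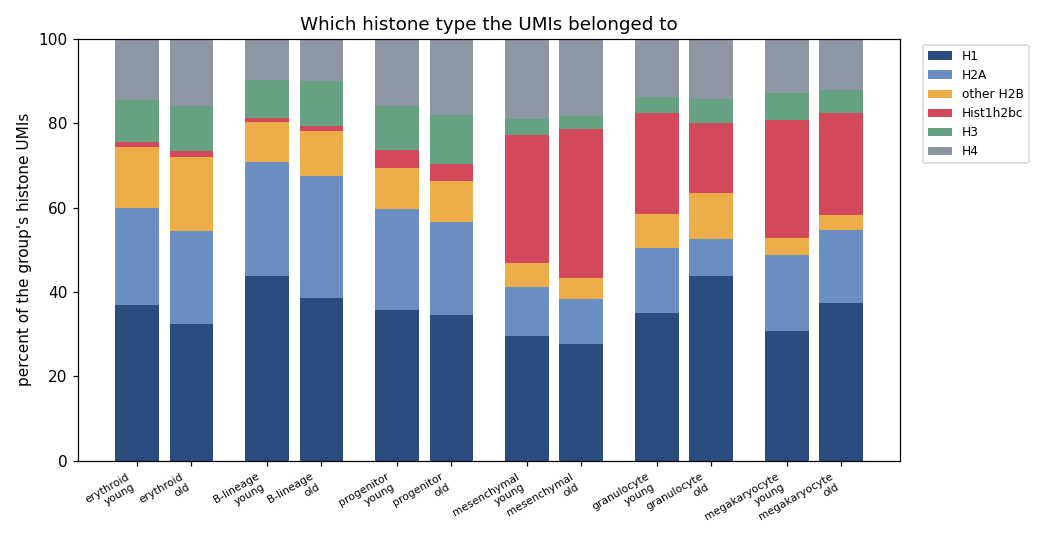
Share of each group's histone UMIs (vertical axis, percent) by histone type, with Hist1h2bc drawn apart from the other H2B genes; each bar is 1 group of 1 mouse. Hist1h2bc makes up 30.4% and 35.2% of the mesenchymal bars and 0.901% and 1.20% of the B-lineage bars.

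The makeup by type differed between the groups. H2B genes gave 35.9% (young) and 40.3% (old) of the histone UMIs of mesenchymal cells and 10.4% and 11.9% of those of B-lineage cells. H1 genes gave 43.9% and 38.7% in B-lineage cells and 29.6% and 27.6% in mesenchymal cells. H2A genes gave 26.9% and 28.8% in B-lineage cells and 11.6% and 10.8% in mesenchymal cells. H3 genes gave 9.12% and 10.7% in B-lineage cells and 3.81% and 3.10% in mesenchymal cells. H4 genes were the reverse, at 9.64% and 10.0% in B-lineage cells and 19.0% and 18.3% in mesenchymal cells. In RefSeq, Hist1h2bc spans 8282 bases, while Hist1h2ac, whose promoter window reaches into that span, covers 487 bases. Hist1h2ac stood at 42.5 and 42.0 CPM in erythroid cells and at 1.63 and 1.61 in mesenchymal cells, unlike its neighbour. The 6 longest spans, from 2667 to 37455 bases, were all of H2B genes, namely Hist1h2bc, Hist1h2be, Hist1h2bp, Hist1h2bq, Hist1h2br and Hist2h2be.

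Among the genes with a promoter entry in RefSeq, 9 H2A and H2B pairs start back to back within 281 bases of each other, which is a common arrangement for these clusters. Hist1h2bc and Hist2h2be have no such entry, so pairs with Hist1h2ac or Hist2h2ac are not in this count. Levels within a pair were unequal and the inequality varied between pairs. Hist1h2ae exceeded its partner Hist1h2bg 29.2-fold (young) and 23.5-fold (old) in erythroid cells. Hist1h2ag, in contrast, stood at 8.63 and 12.7 CPM in erythroid cells against 153 and 137 for its partner Hist1h2bj. Hist1h2ak and Hist1h2bn were close, at 86.3 and 70.1 against 107 and 96.6 CPM in erythroid cells. Capture at the 3′ end can differ between genes, so a ratio within a pair compares captured RNA.

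Which histone genes differed between blood groups and mesenchymal cells was asked with UMIs summed per mouse and group. The test was edgeR's quasi-likelihood test with the mouse as a block and Benjamini-Hochberg adjustment over all genes tested. The block takes out a shift that all groups of a mouse share. The error of this test rests on how far the group differences disagree between the 2 mice, which differ in age. The sums are few, so the error of each gene is also drawn toward a trend over all genes tested. In erythroid cells 56 histone genes were higher and 0 lower than in mesenchymal cells at an adjusted p under 0.05. Of the 67 genes 58 passed the filter on low counts, mostly through the groups where they were high, and 57 had an unadjusted p under 0.05. Among all 13201 genes tested, 35.9% were higher and 44.9% lower. The median log2 difference was 7.39 over the 58 histone genes and -0.28 over all genes tested.

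The 5 largest erythroid differences were those of H2A and H2B genes. Hist1h2bn, an H2B gene, stood at 107 (young) and 96.6 (old) CPM in erythroid cells and at 0.263 and 0.335 in mesenchymal cells. The fitted log2 difference of Hist1h2bn was 8.82 ± 0.23 (SE, edgeR adjusted p = 3.05e-12). Hist1h2an, Hist1h2bf, Hist1h2ak and Hist3h2ba had log2 differences of 8.69, 8.63, 8.56 and 8.41. All 4 were higher in erythroid cells of both mice. At the other end, Hist1h1c differed by 2.92 ± 0.16 and the H4 gene Hist4h4 by 2.65 ± 0.20. Hist3h2a, an H2A gene, stood at 12.3 and 12.7 CPM in erythroid cells and 12.9 and 12.4 in mesenchymal cells. Its log2 difference of 0.41 ± 0.18 had an adjusted p of 0.0507 by edgeR. Hist1h2bc had a log2 difference of 0.40 ± 0.14 (edgeR adjusted p = 0.0175), yet in CPM it was higher in erythroid cells of the young mouse and lower in those of the old mouse. With plain library totals in place of TMM, the scaling used here, the log2 differences of Hist1h2bc and Hist3h2a were -0.025 and -0.016. That change of scale moved the median of all genes from -0.28 to -0.71 and the share of higher genes among those called from 44.5% to 34.8%. By DESeq2 the adjusted p of Hist1h2bc was 0.128, and its call was also lost with no filter on low counts, with a 10% mitochondrial limit and with predicted doublets removed. The other histone gene not called was Hist2h3c2, an H3 gene with a log2 difference of -1.34 ± 0.86 (edgeR adjusted p = 0.168).

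In B-lineage cells 57 histone genes were higher and 0 lower than in mesenchymal cells, and 57 had an unadjusted p under 0.05. Among all genes 27.8% were higher and 38.9% lower. Their median log2 difference was 6.54, against -0.25 over all genes. Hist1h2ae led with a log2 difference of 8.94 ± 0.19 (edgeR adjusted p = 2.1e-12), followed by Hist1h1b with 8.90 ± 0.19. Hist1h2ab, Hist1h2af and Hist1h2bn followed with 8.75, 8.58 and 8.55. Hist3h2a was higher in B-lineage cells, at 60.6 and 51.3 against 12.9 and 12.4 CPM, with a log2 difference of 2.07 ± 0.19 (edgeR adjusted p = 5.77e-07). Hist1h2bc was the only tested histone gene not called, with a log2 difference of 0.27 ± 0.16 and an adjusted p of 0.156 by edgeR. Over the alternatives its adjusted p ranged from 0.0486, with plain library totals, to 0.629, with no filter on low counts.

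In progenitor cells 52 histone genes were higher and 1 lower than in mesenchymal cells. Among all genes 34.0% were higher and 40.0% lower. Over the 58 histone genes the median log2 difference was 4.43, against -0.15 over all genes. Hist1h1b led with a log2 difference of 6.00 ± 0.17 (edgeR adjusted p = 1.28e-11), and Hist1h2bf, Hist1h3d, Hist1h2bn and Hist1h2ae followed with 5.95, 5.93, 5.91 and 5.87. The gene called lower was Hist2h3c2, an H3 gene with 0 UMIs in progenitor cells of both mice and 71 (young) and 35 (old) UMIs in mesenchymal cells. Against a floor of 3 UMIs per library, its level was at least 1.45-fold lower in young progenitor cells. In the old mouse the floor allows no bound. Hist1h2bc stood at 85.3 and 72.3 CPM against 86.0 and 107, a log2 difference of -0.12 ± 0.15 with an adjusted p of 0.497 by edgeR. Hist1h1c differed by 0.66 ± 0.17 (edgeR adjusted p = 0.00258). When each cell was thinned to 2000 UMIs, 34 of 53 tested histone genes were higher in progenitor cells.

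**Figure D3:**
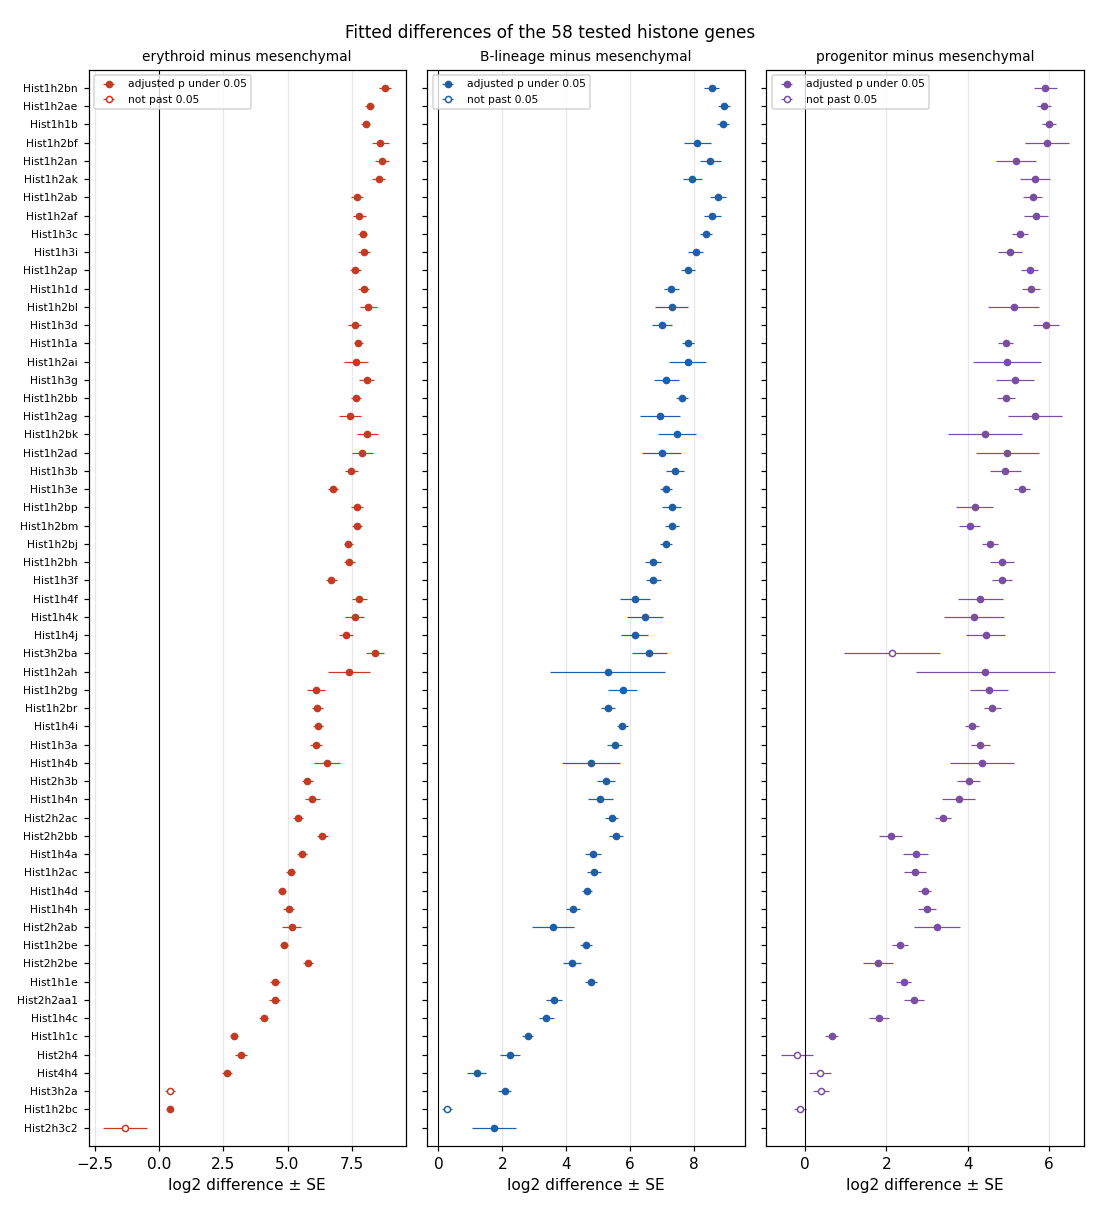
Fitted log2 difference (horizontal axis, bars are SE) of each tested histone gene between a blood group and the mesenchymal group; filled points passed an adjusted p of 0.05. Hist2h3c2 is left out of the progenitor panel because it had 0 UMIs there, and Hist1h2bc and Hist3h2a lie near 0 in the erythroid panel at 0.40 and 0.41.

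By type, H4 genes had the smallest median log2 difference in each of the 3 comparisons. In erythroid cells the medians were 7.77 for H1, 7.65 for H2A, 7.55 for H2B, 7.14 for H3 and 5.77 for H4. In B-lineage cells they were 7.29, 6.98, 6.92, 7.06 and 4.80 in the same order, and in progenitor cells 4.93, 4.98, 4.48, 4.98 and 3.39. No test compared the types. All 3 comparisons share the mesenchymal samples.

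The B-lineage and erythroid groups also differed in which histone genes were high, given here as values with no test. Of 48 histone genes with at least 10 UMIs in both groups of both mice, 25 were higher in B-lineage cells in both mice, 16 were higher in erythroid cells in both mice and 7 differed in direction between mice. Over all 5452 genes that met the same minimum, 58.8% were higher in B-lineage cells of both mice and 24.0% in erythroid cells of both, so the histone share higher in B-lineage cells was not above that of all genes. In B-lineage cells 4 of 5 H1, 8 of 10 H2A and 6 of 15 H2B genes were higher in both mice. So were 5 of 9 H3 and 2 of 9 H4 genes. Higher in erythroid cells of both mice were 1, 2, 5, 2 and 6 genes, in the order H1 to H4. The log2 difference of Hist3h2a, B-lineage minus erythroid, was 2.30 (young) and 2.01 (old). For Hist1h2ab it was 1.39 and 1.79, and for Hist1h1b it was 1.24 and 1.56. The H2B gene Hist2h2be went the other way at -1.03 and -1.25, as did the H4 gene Hist1h4f at -1.27 and -0.83.

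Genes that act with these histones were described from fixed lists. All 26 S-phase genes and all 24 G2M genes were higher in each of the 3 blood groups than in mesenchymal cells. The histone chaperone list, whose proteins carry new histones to DNA, had 13 of 13 genes higher in each blood group. Its median log2 difference was 2.72 in erythroid, 2.26 in B-lineage and 1.99 in progenitor cells. Asf1b, which hands H3 and H4 to the replication machinery, differed by 6.33 ± 0.25, 7.42 ± 0.27 and 4.67 ± 0.29. Chaf1a, the large subunit of chromatin assembly factor 1, differed by 4.91 ± 0.16, 4.06 ± 0.18 and 3.67 ± 0.17. Of the list of histone mRNA and histone locus genes, 13 of 15 tested were higher in erythroid cells, 11 in B-lineage cells and 15 in progenitor cells, and 0 were lower. Slbp, which binds the histone stem-loop, differed by 3.11 ± 0.19, 2.43 ± 0.20 and 1.00 ± 0.19. Eri1, a nuclease that trims histone mRNA, differed by 2.59 ± 0.13, 2.61 ± 0.15 and 1.66 ± 0.14. Cpsf2, a subunit of the cleavage complex, differed by 2.28 ± 0.13, 2.09 ± 0.14 and 2.03 ± 0.13.

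Replication-independent histone genes, which are expressed outside S phase, moved both ways. Of 11 tested, 7 were higher and 4 lower in erythroid cells, 9 higher and 2 lower in B-lineage cells, and 8 higher and 3 lower in progenitor cells. Their median log2 difference was 0.88, 2.32 and 1.39. H2afz, which encodes the variant H2A.Z, stood at 2192 (young) and 2137 (old) CPM in erythroid cells against 257 and 256 in mesenchymal cells. Cenpa, the centromere H3 variant, differed by 6.46 ± 0.28, 4.86 ± 0.27 and 4.18 ± 0.26 in erythroid, B-lineage and progenitor cells. H1f0, the linker histone of resting and differentiated cells, was called lower in all 3 groups, with log2 differences of -0.78, -0.49 and -1.58, although in old B-lineage cells it stood at 109 CPM against 103. H2afy2, which encodes a macroH2A, was also lower, at 0.822 and 0.322 CPM in erythroid cells against 25.0 and 25.7 in mesenchymal cells.

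Within a group the histone UMIs were unevenly spread over cells. Each cell was thinned to 2000 UMIs so that depth was equal, which left out 10 young and 17 old erythroid cells and 269 and 99 mesenchymal cells. A thinned erythroid cell held 19.4 (young) and 21.4 (old) histone UMIs on average, with a median of 17 in both mice. A thinned B-lineage cell held 24.2 and 18.2 on average, with medians of 15 and 7. A progenitor cell held 3.35 and 3.16, and a mesenchymal cell 0.574 and 0.627. At least 10 histone UMIs were found in 67.4% and 61.8% of erythroid cells, 55.5% and 43.8% of B-lineage cells, 12.9% and 6.25% of progenitor cells, and 0.0638% and 0.150% of mesenchymal cells. The tenth of cells with most histone UMIs held 28.8% and 34.3% of them in the erythroid group and 47.8% and 53.5% in the progenitor group.

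Shares of thinned cells with a UMI separated the genes further. Hist1h1b was seen in 71.8% and 63.4% of erythroid cells and in 0.663% and 0.702% of mesenchymal cells (unthinned 85.0%, 85.0%, 2.26% and 2.59%). Hist1h2bc was seen in 16.2% and 22.3% of erythroid cells and in 14.1% and 17.6% of mesenchymal cells (unthinned 56.1%, 58.3%, 35.5% and 52.2%). Median depths before thinning were 11240 and 14418 UMIs in erythroid and 6517 and 10305 in mesenchymal cells. No group here can be said to lack histone RNA, so the share that free RNA gives could not be set from one. As a measure of blood RNA in mesenchymal cells, their erythroid markers stood at 0.238% (young) and 0.255% (old) of the erythroid level, and their B-lineage markers at 0.0660% and 0.0258% of the B-lineage level. These marker lists also set the groups, and cells with 3 markers of a blood list were kept out of the mesenchymal group. The marker shares are limited by that choice and can understate blood RNA. The histone genes stood at a median of 0.872% and 1.13% of the B-lineage level, over 56 and 48 genes with at least 10 B-lineage UMIs. Hist1h1c, Hist1h2bc, Hist2h4, Hist3h2a and Hist4h4 were above 10% in both mice, and Hist1h4c and Hist2h2aa1 were so in the old mouse. The part of free RNA in the low mesenchymal values was not tested.

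Cells were then divided by their S and G2M list UMIs, a division chosen after seeing the data. S-high cells had at least 3 S UMIs and at least 2 times as many S as G2M UMIs, G2M-high cells the reverse, and cells with at most 2 UMIs over both lists were called low. These are ranges on a scale, and the cells between S-high and G2M-high numbered 112 young and 16 old in the B-lineage group. In young B-lineage cells the histone UMIs stood at 1134 CPM in 76 low cells, 5754 in 86 S-high cells, 19580 in the 112 cells between, and 16142 in 90 G2M-high cells. In old B-lineage cells the values were 1445, 3823, 17484 and 13702 CPM over 12, 14, 16 and 9 cells. In both mice the low cells had the least and the cells between had the most.

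Progenitor cells had 898 (young) and 1232 (old) histone CPM in 108 and 42 S-high cells and 4936 and 6428 in 9 and 3 G2M-high cells. Erythroid cells were mostly between, with 254 of 301 and 253 of 326 cells there at 8434 and 5980 CPM. Erythroid S-high cells held 6237 and 6210 CPM over 10 and 6 cells, G2M-high cells 7906 and 14078 over 33 and 64, and low cells 91.6 and 8797 over 4 and 3. The mice thus differed in the order of the erythroid classes.

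Of 55 histone genes with 10 or more UMIs over the S-high and G2M-high young B-lineage cells, 49 were higher in G2M-high than in S-high cells, and in the old mouse 30 of 30 were, where 56.0% and 47.7% of all genes with as many UMIs were. In progenitor cells the counts were 44 of 44 (young) and 38 of 39 (old), against 45.0% and 47.4% of all genes. In erythroid cells they were 34 of 48 and 54 of 56, against 57.3% and 53.0% of all genes. Hist1h1b stood at 1519 and 3722 CPM in S-high and G2M-high young B-lineage cells and at 855 and 2847 in old ones. In erythroid cells it was lower in the G2M-high class of the young mouse, 1239 against 1535 CPM, and higher in that of the old mouse, 1459 against 579. Hist1h2bc stood at 100.2 and 160 CPM in S-high and G2M-high young B-lineage cells. Hist3h2a stood at 54.8 and 51.1 CPM in the same young classes and at 6.84 and 56.2 CPM in the old ones, so the mice differed. With 1 sample per class and mouse these values have no test.

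**Figure D4:**
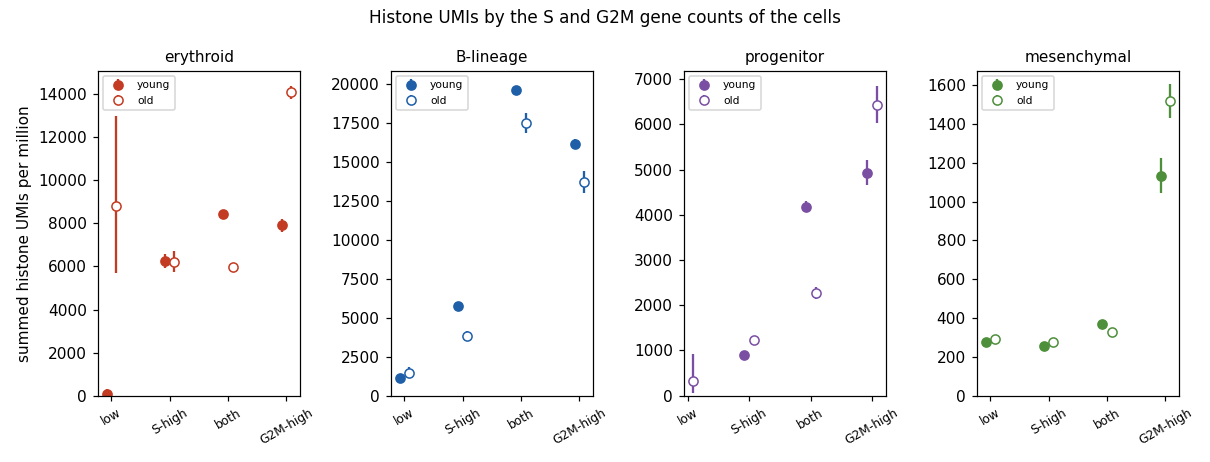
Summed histone CPM (vertical axis, own scale per panel, starting at 0) by cell class in each group; filled points are the young mouse, open points the old mouse, bars the 95% exact Poisson interval. In B-lineage cells the cells between reach 19580 and 17484 CPM and the low cells 1134 and 1445.

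Mesenchymal cells were compared by their proliferation genes. The design called a cell proliferating at 3 or more UMIs over at least 2 S or G2M genes, which took in 2957 of 8109 young and 2387 of 4090 old mesenchymal cells. They were deeper than the 1372 and 373 cells with 0 such UMIs, with medians of 9088 and 12263 against 4269 and 5031 UMIs, and the part of depth was not tested beyond thinning. Summed histone UMIs stood at 289 and 311 CPM in these cells and 283 and 302 in the cells with 0 such UMIs, which are the others of this comparison. Between the classes lay 3780 and 1330 cells at 276 and 289 CPM, which were left out. Of 39 histone genes tested, 4 were higher and 1 lower, where 5.23% of all genes were higher and 3.71% lower. Over these 39 genes the median log2 difference was 0.03, and over all genes it was under 0.01 in size. With plain library totals the share of higher genes among all called moved from 58.5% to 44.1%, and with DESeq2 to 70.2%.

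The 4 higher genes are among the 10 histone genes with the highest CPM over the groups. Hist1h1b stood at 8.25 (young) and 6.37 (old) against 2.15 and 3.21 CPM, a log2 difference of 1.69 ± 0.32 (edgeR adjusted p = 4.8e-05). Hist1h2ae and Hist1h2ap differed by 1.54 ± 0.39 and 1.98 ± 0.56 (edgeR adjusted p = 0.00347 and 0.0117). In the old mouse the others held only 3 UMIs of Hist1h2ae and 1 of Hist1h2ap, and the exact counting intervals of the ratios, 0.909 to 13.4 and 0.840 to 193, reached under 1. Hist1h2ab had 33 and 55 UMIs in proliferating cells and 1 and 0 in the others. Its ratio in the young mouse was 7.21 (95% exact counting interval 1.21 to 293), and in the old mouse it was at least 1.20-fold higher against the floor of 3 UMIs. The lower gene was Hist1h1e, at 32.8 and 34.0 against 44.2 and 40.8 CPM, a log2 difference of -0.33 ± 0.11 (edgeR adjusted p = 0.0398). With cells thinned to 2000 UMIs, with DESeq2 or without the mouse block, 0 histone genes were called, while 10 had an unadjusted p under 0.05 by edgeR in the test reported here. DESeq2 gave some histone genes no adjusted p in this comparison, Hist1h1c, Hist2h4, Hist3h2a and Hist4h4 among them. Such genes could not be called, so the 0 of DESeq2 does not show that they were unchanged.

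A stricter call, added after the breadth of the first was seen, took only cells with at least 5 UMIs over at least 3 G2M genes. It left 37 young and 46 old mesenchymal cells, with medians of 15233 and 18143 UMIs, of which 3 and 0 were predicted doublets. Summed histone UMIs stood at 1725 and 1433 CPM in them, against 283 and 302 in cells with 0 list UMIs. Of 28 histone genes tested, 21 were higher and 0 lower, where 8.12% of all genes were higher and 5.49% lower. Over these 28 genes the median log2 difference was 3.04, against -0.02 over all genes. The filter on low counts left out the other 39 histone genes. Genes low in the cells with 0 list UMIs passed it only through the stricter cells, so the 28 lean toward genes high there. Hist1h1b stood at 269 (young) and 149 (old) against 2.15 and 3.21 CPM, a log2 difference of 6.55 ± 0.34 (edgeR adjusted p = 4.42e-05). Hist1h2ae stood at 185 and 95.7 against 1.84 and 1.37, and Hist1h1e, lower in the broad call, stood at 211 and 194 against 44.2 and 40.8. Hist1h2bc stood at 100.4 and 179 against 81.4 and 108, with a log2 difference of 0.61 ± 0.18 and an adjusted p of 0.0642 by edgeR. Erythroid markers stood at 27.5 and 29.9 CPM in these cells against 5.53 and 11.9 in the others, and B-lineage markers at 8.10 and 1.99 against 7.37 and 2.75. The part of blood RNA in these levels was not tested.

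**Figure D5:**
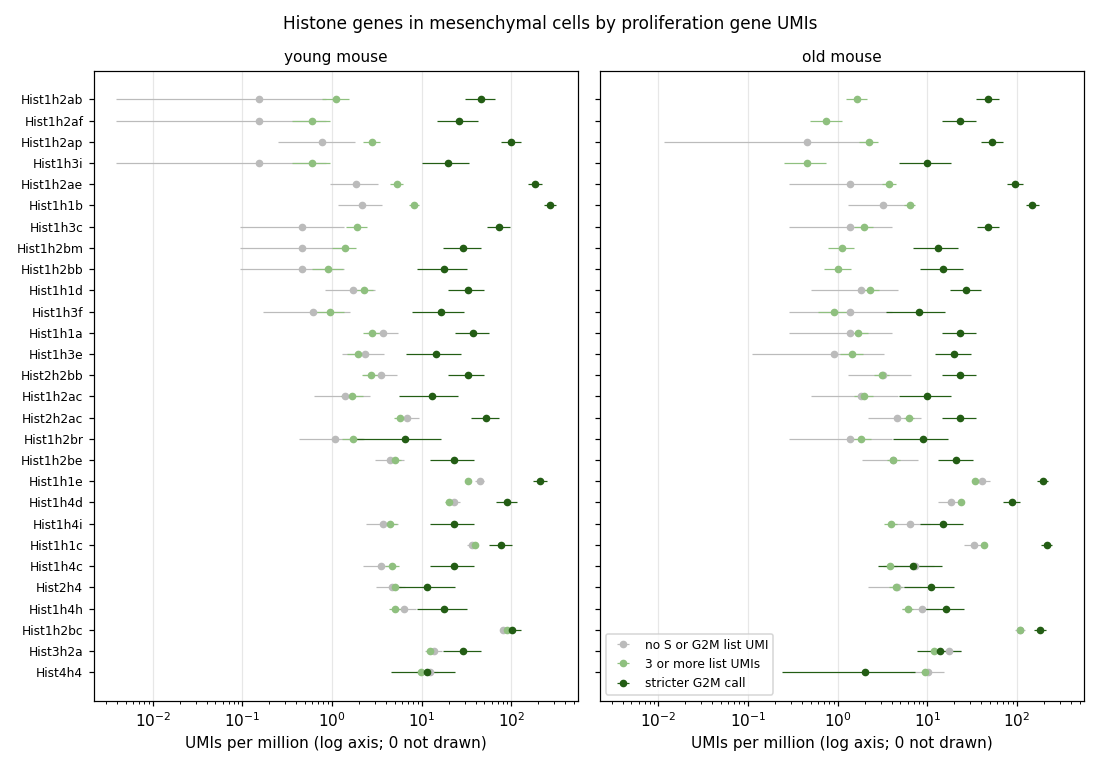
CPM (log axis, bars are 95% exact Poisson intervals) of the 28 histone genes tested under the stricter call, in 3 classes of mesenchymal cells of each mouse. Cells with the stricter G2M call lie to the right for Hist1h1b, at 269 and 149 against 2.15 and 3.21 CPM, while Hist1h2bc has 100.4 and 179 against 81.4 and 108 CPM.

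In the same cells 8 of 13 chaperone genes and 7 of 11 tested replication-independent histone genes were higher and 0 of either list lower. The chaperone count includes Chaf1b, which is also in the S list that chose the comparison cells. H1f0 stood at 199 and 329 CPM against 101 and 99.9, a log2 difference of 1.44 ± 0.20 (edgeR adjusted p = 0.00426). Of 14 tested histone mRNA and histone locus genes 4 were higher, Slbp among them, which is also in the S list that chose the comparison cells. In the broad proliferating call, 3 of 11 replication-independent, 2 of 15 histone mRNA and 2 of 13 chaperone genes were higher and 0 lower. Slbp and Chaf1b are among these called genes and also in the S list. Their calls were thus fixed by the choice of cells. The S and G2M lists themselves chose these classes and are not results there.

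CD24, the surface protein read by the antibody, marked 1573 young and 760 old cells above thresholds of 312 and 396 antibody UMIs. Over all kept cells, 57 histone genes were higher and 0 lower in CD24+ than in CD24- cells, where 28.5% of all genes were higher and 29.0% lower. Of the 67 genes 61 passed the filter. Over these 61 the median log2 difference was 4.75, against -0.05 over all genes. With plain library totals the median of all genes moved to -0.32 and the share of higher genes among those called from 49.5% to 37.8%. Summed histone UMIs stood at 4495 CPM (young) and 4313 CPM (old) in the CD24+ class, and at 417 CPM and 419 CPM in the CD24- class. Hist1h2an, Hist1h4f, Hist3h2ba and Hist1h2ai had the largest log2 differences, of 5.98, 5.84, 5.76 and 5.74. Hist1h2ah came next in the fit, but it had 29 and 27 UMIs in CD24+ cells against 3 and 1 in CD24- cells, and its ratios of 30.5 (95% exact counting interval 9.46 to 157) and 99.0 (16.3 to 4053) were loosely set. Hist1h2an stood at 22.5 and 30.1 against 0.650 and 0.324 CPM. Hist1h2bc stood at 90.8 and 103 against 92.5 and 119, with a log2 difference of 0.15 ± 0.19 (edgeR adjusted p = 0.528) that was -0.12 with plain library totals. All 26 S genes, 24 of 24 G2M genes, 12 of 13 chaperone genes, 14 of 16 histone mRNA genes and 7 of 11 replication-independent histone genes were higher in CD24+ cells, and 1 of the last list was lower.

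The CD24+ cells were of other groups than the CD24- cells. CD24+ status was found in 98.0% (young) and 97.2% (old) of erythroid cells, 99.2% and 96.1% of B-lineage cells, 26.5% and 51.6% of progenitor cells, and 8.23% and 5.16% of mesenchymal cells. Erythroid and B-lineage cells held 45.8% and 32.7% of the histone UMIs of young CD24+ cells, and 68.9% and 8.21% of those of old CD24+ cells. Mesenchymal cells were 42.4% and 27.8% of CD24+ cells and held 2.25% and 1.44% of their histone UMIs. Within the progenitor group, CD24+ cells held 2714 and 2492 histone CPM and CD24- cells 1595 and 949, over 41 and 33 CD24+ cells and with no test.

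Within the mesenchymal group, 0 histone genes were higher and 0 lower in CD24+ cells by edgeR, where 5.98% of all genes were higher and 6.01% lower. Of 41 histone genes tested, 5 had an unadjusted p under 0.05, and DESeq2 also called 0. Summed histone UMIs stood at 285 (young) and 281 (old) CPM in 667 and 211 CD24+ cells and at 283 and 306 in 7442 and 3879 CD24- cells. Over these 41 genes the median log2 difference was 0.20, and over all genes it was under 0.01 in size. With plain library totals the share of higher genes among all called moved from 49.9% to 35.8%. Hist1h2bj, an H2B gene, stood at 2.17 and 3.17 against 1.04 and 1.01 CPM, a log2 difference of 1.41 ± 0.45 with an adjusted p of 0.0788 by edgeR. Hist1h4d stood at 16.9 and 16.2 against 21.5 and 24.0, a log2 difference of -0.34 ± 0.12 with an adjusted p of 0.121 by edgeR. With 2 times the antibody threshold, 3 histone genes were higher. Of the lists, 8 of 24 G2M genes were higher in CD24+ mesenchymal cells, Mki67 among them at 1.63 ± 0.12, while 0 of 26 S genes and 0 of 13 chaperone genes were called. Of the other lists, H2afy2 was higher at 0.45 ± 0.10 and Cstf2, which acts in mRNA cleavage, was lower at -0.48.

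Between the young and the old mouse there is 1 sample per age, so there is no test. Per gene, 95% Poisson intervals that cover counting error only lay apart in the erythroid group for 17 of 63 histone genes with a UMI, 5 higher and 12 lower in the old mouse, where intervals lay apart for 11.3% of all genes. In the B-lineage group they lay apart for 1 higher and 10 lower of 62, where 4.29% of all genes did. In the progenitor group they lay apart for 4 higher and 4 lower of 61, against 3.55% of all genes. In the mesenchymal group they lay apart for 2 higher and 1 lower of 64, against 19.7% of all genes. Intervals lie apart more readily for genes with many UMIs, and histone genes were not matched to all genes by UMIs. These shares thus compare genes of unlike counts. Hist1h1a was lower in the old mouse in all 4 groups, at 359 and 291 CPM in erythroid cells, 558 and 425 in B-lineage cells, 64.3 and 46.1 in progenitor cells and 2.42 and 1.59 in mesenchymal cells. Hist1h1b was lower in the old mouse in the 3 blood groups, and its mesenchymal intervals overlapped. Hist1h2bc was higher in old mesenchymal cells, at 107 against 86.0 CPM. The median log2 difference, old minus young, over genes with at least 10 UMIs in both mice was -0.02 in erythroid, -0.16 in B-lineage, -0.03 in progenitor and 0.04 in mesenchymal cells.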

How the data were processed

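The deposited files hold raw counts, whole UMIs per gene and barcode, which the authors made with Cell Ranger (6.1.1 per the file headers; mm10 per the submitters' processing notes) from 10x 3′ libraries. One RNA matrix with the CD24 antibody was given per mouse, and no normalization had been applied. Depth after filtering was 81076421 (young) and 66702846 (old) UMIs. Barcodes with under 200 genes or over 20% mitochondrial UMIs were left out. Predicted doublets (Scrublet in scanpy 1.11.5; 269 young, 57 old) were kept, and removed in an alternative.

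Blood groups needed 3 markers and 5 marker UMIs, 2 times those of the next lineage, and at most 1% mesenchymal marker UMIs. Mesenchymal cells needed 4 markers and 10 UMIs with no blood lineage at 3 markers. CD24+ cells lay above an Otsu threshold per library.

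UMIs were summed per mouse and group and tested with edgeR 4.0.16 in R 4.3.3 (TMM, filterByExpr, quasi-likelihood F test, two-sided). The mouse was the block because the groups compared came from the same animal. The lineage fit had 8 sums and 3 residual degrees of freedom, the CD24 and proliferation fits 4 sums and 1. DESeq2 1.42.0 was an alternative. The test code was tested on simulated data.

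Named genes were the 5 largest called differences in each direction that both mice shared, the 10 genes with the highest summed CPM, testis genes at 0, and up to 4 called genes per list. Hist1h2bc, Hist3h2a, Hist4h4, Hist2h2be, Hist1h2ac, H1f0, the pair genes and the genes named in other ways were chosen after their values were seen. The members, groups and gene lists were chosen with earlier results of these data known.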

Additional observations from a re-analysis of the deposited data

Results flagged for a closer look

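Some histone genes with at least 10 UMIs in both classes of both mice differed in opposite directions in the mice on the CPM scale, and the difference between the mice was not tested. Against mesenchymal cells these were 2 of 45 genes in erythroid, 0 of 43 in B-lineage and 1 of 41 in progenitor cells. The log2 difference of Hist1h2bc, erythroid minus mesenchymal, was 0.072 (young) and -0.11 (old). For Hist3h2a it was -0.066 and 0.031. For Hist4h4, progenitor minus mesenchymal, it was -0.32 and 0.81, from 32 and 35 progenitor UMIs.

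Between CD24+ and CD24- cells of all groups, 3 of 54 genes did so, with log2 differences of 0.10 and -0.21 for Hist2h3c1, -0.30 and 0.055 for Hist2h3c2 and 0.41 and -0.061 for Hist3h2a. Within the mesenchymal group 5 of 14 did, namely Hist1h1b at 0.13 and -0.24, Hist1h2ap at -0.12 and 0.97, Hist1h4c at 0.0043 and -0.34, Hist1h4i at 0.15 and -0.024, and Hist2h4 at 0.017 and -0.33. Between proliferating and other mesenchymal cells 5 of 12 did, and 4 of these encode H4 histones. The values were 0.40 and -0.95 for Hist1h4c, -0.20 and 0.36 for Hist1h4d, 0.28 and -0.72 for Hist1h4i, 0.14 and -0.040 for Hist2h4, and -0.28 and 0.45 for the H2A gene Hist2h2ac. Under the stricter G2M call 1 of 8 did, Hist3h2a at 1.09 and -0.32.

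Histone UMIs were also found in cells outside the comparisons. Barcodes that failed the filters held 1894 (young) and 3755 (old) CPM of histone UMIs. Cells whose markers were mixed between lineages held 2806 and 3132 CPM, at median depths of 24610 and 29704 UMIs.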

How the results depend on the processing

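Counts of histone genes called in erythroid, B-lineage, progenitor and all CD24+ cells stayed within 1.5 times the reported counts under every alternative run, apart from 34 higher in progenitor cells with cells thinned to 2000 UMIs and 2 lower there with no filter on low counts. Without the mouse block (no replicate block) they were 57, 57, 52 and 57 higher. In mesenchymal CD24+ cells, 3 were higher at 2 times the antibody threshold. The proliferating call was the least stable: 4 higher became 0 with DESeq2, without the block (the pairing by mouse) and after thinning, 10 at 2 times the UMI minimum and 21 under the stricter G2M call, while 1 lower became 0 with DESeq2, no filter, no block, the 10% mitochondrial limit, thinning, 2 times the minimum and the stricter call, where Hist1h1e turned to 2.34. For the proliferating call DESeq2 gave some histone genes no adjusted p, so its 0 includes genes that could not be called. With plain library totals Hist1h2bc and Hist3h2a turned to -0.025 and -0.016 in erythroid cells and Hist1h2bc to -0.12 in CD24+ cells. The cause of these changes was not tested.

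Summed histone CPM moved beyond counting error with a 10% mitochondrial limit, to 7965 in young and 5980 in old erythroid cells, with doublets removed, to 13685 in B-lineage, 2164 in progenitor and 279 in mesenchymal young cells, and with 2 times the marker minimum, to 6772 in old erythroid cells. Leaving out a mouse leaves 1 mouse and no test, so no count could be given. The log2 ratio of summed histone UMIs in mesenchymal CD24+ over CD24- cells then ranged from -0.12 to 0.0083, with other signs kept. Plain totals and the stricter call were chosen after seeing the data. Depth limits what can be said of genes under 10 UMIs in a sum.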

Other observations

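Megakaryocyte cells, 71 young and 58 old, held more Hist1h2bc than the other 5 groups with levels given here, at 320 (95% exact Poisson interval 288 to 355) and 434 (396 to 474) CPM. Hist1h1c stood there at 199 and 246 CPM, and Hist1h1b at 62.7 (young) and 234 (old). Hist1h2bc gave 28.1% and 24.3% of the histone UMIs of megakaryocyte cells and 23.8% and 16.6% of those of granulocyte cells. Granulocyte cells held Hist1h1c at 132 and 209 CPM against 39.1 and 37.6 for Hist1h1b.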
